A study of Sus scrofa with 30 samples.

Results

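The miRNA described here is ssc-miR-21, the single row of the count table whose number directly after ssc-miR- is 21, out of 411 ssc-miRNA rows. The row names no arm, so the 5p and 3p products could not be told apart by name. Plasma small RNA was sequenced from 3 male Göttingen minipigs (GMPs), 4 months old, that received 2.2 Gy total body irradiation (TBI). By the paper's account none of the 3 survived it, so the course described is that of animals that died. Each animal gave 1 library at each of 10 time points, namely C7 and C1 (7 days and 1 day pre-TBI), 0d (6 h post-TBI), the days 1d, 3d and 7d, and then 10d, 14d, 17d and 20d. C7 and C1 formed the pre-TBI baseline, and the later time points were grouped by the study into an Early phase from 0d to 7d, a Mid phase of 10d with 14d, a Late phase of 17d alone and a late regression (LR) phase of 20d alone. The study drew these phases from the same libraries, so they are not independent of the values compared. All animals belonged to the vehicle arm of a countermeasure study and received subcutaneous dextrose after TBI, and antibiotics when neutrophils were low. No unirradiated animals were followed over the same days, so TBI cannot be told apart from repeated bleeding, vehicle or time.

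A miRNA is cut from a hairpin transcript by Drosha and Dicer, loaded into Argonaute, and directed by its seed to messenger RNAs that it represses. miR-21 is a widely expressed miRNA of epithelial, endothelial and blood cells, is induced by signals such as STAT3, AP-1 and NF-kB, and is known for its high level in many tumours. In plasma, miRNAs travel in vesicles and in protein complexes, and much of the pool comes from blood cells. The row matched 1 gene, MIR21, in the RefSeq table of the Sscrofa11.1 assembly. Ordered by start position, the genes listed just before and after it were PTRH2 and TUBD1. Distances, and genes that overlap it, were not looked at. Coordinates are not given, because the counts were made on another build.

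The 6 libraries of minipig 3 from 3d onwards held 0 to 17 counts in all, none of them from miR-21, and were left out by a minimum of 1000 counts chosen after the totals were seen. Totals of the other 24 libraries ranged from 24341 to 550316 counts (median 240612). From 3d onwards every value therefore rests on minipigs 1 and 2. As a check of the tissue label, the red cell miRNAs common in plasma were all present, and ssc-miR-486, ssc-miR-92a, ssc-miR-16 and ssc-miR-451 had mean counts of 6293, 1932, 1104 and 823 per library. ssc-miR-4332 took 15.1% of all counts, and the level of miR-21 had no relation to it (Pearson r = -0.003 over the 24 libraries, which share minipigs).

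miR-21 had 9 to 599 counts per library, with a median of 177 and 4987 counts in all. The precision of these values differed by phase. The pre-TBI libraries held 9 to 432 counts of miR-21 and the Early libraries 71 to 599, whereas the Mid libraries held 15 to 49. The Late libraries held 10 and 61 counts, and the LR libraries 300 and 436. A count of 9 has an exact Poisson 95% interval of 4.12 to 17.1, and a count of 599 one of 552 to 649. Reads were not marked with molecular identifiers, so all such intervals cover counting error only. In bulk plasma, fewer cells that release an miRNA and less of it per cell cannot be told apart.

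**Figure D1:**
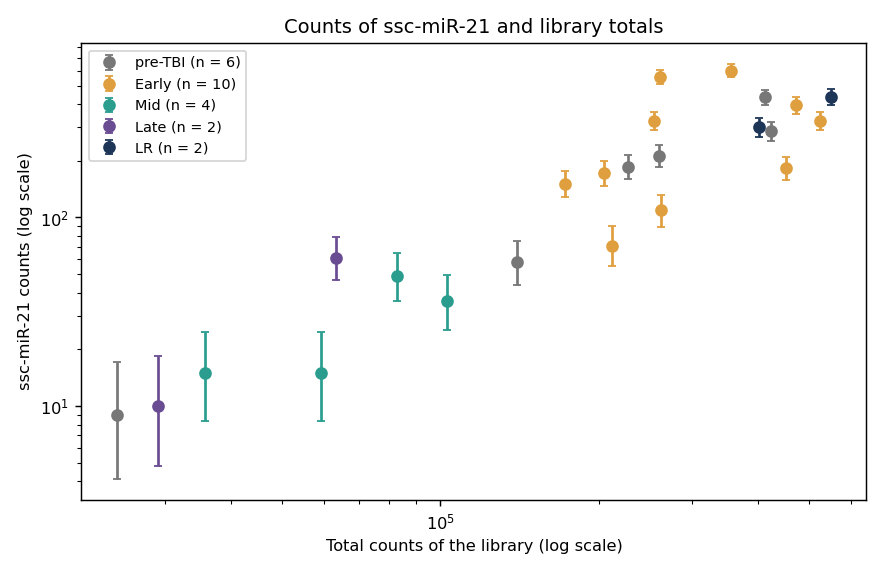
Counts of ssc-miR-21 (y axis, log scale) against the total counts of the library (x axis, log scale) for the 24 libraries kept, coloured by phase, with exact Poisson 95% intervals as bars. The Mid and Late libraries lie at the lower left with 10 to 61 counts of miR-21, beside the C7 library of minipig 1 with 9.

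Before TBI, miR-21 was of middle abundance in plasma. Levels are given as log2 CPM, where CPM is the share of a library's counts scaled to a common total with TMM factors, with a prior count of 2. Minipig 1 had 8.81 at C7 and 8.94 at C1, minipig 2 had 9.65 and 9.53, and minipig 3 had 9.58 and 9.24. C1 minus C7 was 0.129, -0.12 and -0.336 in minipigs 1, 2 and 3. Minipig 1 lay below the other animals at both bleeds, though its C7 value came from 9 counts. The 6 libraries gave 9.30 ± 0.35 (SD, n = 6), which placed miR-21 at position 185 of 411 ssc-miRNAs by the mean of log2 CPM. Next above was ssc-miR-181d-5p at 9.31 ± 0.28 (SD, n = 6) and next below ssc-miR-361-3p at 9.29 ± 0.89 (SD, n = 6), and neither differed from miR-21 beyond its spread. C1 against C7 did not pass the threshold for miR-21 (log2 fold change -0.17, SE 0.44, edgeR's quasi-likelihood test with Benjamini-Hochberg adjustment, adjusted p = 0.997).

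In the first day after TBI the animals showed no common direction. Their differences at 0d were no larger than the largest gap between the 2 pre-TBI bleeds of an animal (-0.336, in minipig 3). At 0d, minipigs 1, 2 and 3 had log2 CPM of 8.83, 9.77 and 9.52, which was 0.05 below, 0.17 above and 0.11 above the animals' own pre-TBI means. At 1d they had 8.73, 10.41 and 8.83, which was 0.15 below, 0.82 above and 0.58 below their own means. The 1d library of minipig 2 was thus higher than every pre-TBI library. That of minipig 1 was just under the lowest of them, at 8.81, which came from 9 counts. As a raw share of counts, miR-21 in minipig 1 at 1d was 0.0415%, no lower than 0.037% at C7 and 0.0415% at C1.

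At 3d, miR-21 reached its highest level of the course in each of the 2 animals measured. Minipig 1 had a log2 CPM of 10.29 and minipig 2 of 11.05, both above all 6 pre-TBI libraries, whose highest was 9.65. These levels were 1.41 and 1.46 above the animals' own pre-TBI means. In raw shares, miR-21 took 0.128% of the counts in minipig 1 (exact binomial 95% interval 0.115% to 0.143%), against 0.037% (0.0169% to 0.0702%) at C7 and 0.0415% (0.0315% to 0.0536%) at C1. In minipig 2 it took 0.213% (0.196% to 0.232%), against 0.0815% (0.0702% to 0.0942%) at C7 and 0.0816% (0.071% to 0.0934%) at C1. The intervals before TBI and at 3d did not overlap in either animal, but they cover counting error only and not the spread between bleeds. Those of the 2 pre-TBI bleeds of minipig 3 did not overlap either. They were 0.105% (0.095% to 0.115%) at C7 and 0.0678% (0.0602% to 0.0761%) at C1. By rank within the library, miR-21 moved from 235 and 204 before TBI to 128 at 3d in minipig 1, and from 161 and 173 to 79 in minipig 2.

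At 7d the level of minipig 1 was still 0.77 above its own pre-TBI mean, at 9.65, while minipig 2 had returned to 9.47, which was 0.12 below its own. Both lay within the pre-TBI range. At 10d, minipigs 1 and 2 had 8.51 and 8.48, below all pre-TBI libraries and 0.37 and 1.11 below their own means. These libraries held 15 counts of miR-21 each, with an exact Poisson 95% interval of 8.4 to 24.7. In minipig 2 the raw share at 10d was 0.0419% (exact binomial 95% interval 0.0235% to 0.0692%), under the intervals at C7 and C1. In minipig 1 it was 0.0253% (0.0142% to 0.0417%) and overlapped them. These intervals, too, leave out the spread between bleeds.

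At 14d the animals parted, with 9.06 in minipig 1, which was 0.18 above its own pre-TBI mean, and 8.34 in minipig 2, which was 1.25 below. At 17d they had 8.91 and 9.91, and at 20d 9.82 and 9.26. The 17d values were 0.04 and 0.32 above the animals' own pre-TBI means, the former from 10 counts. At 20d, minipig 1 was 0.94 above its own mean and minipig 2 was 0.34 below.

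**Figure D2:**
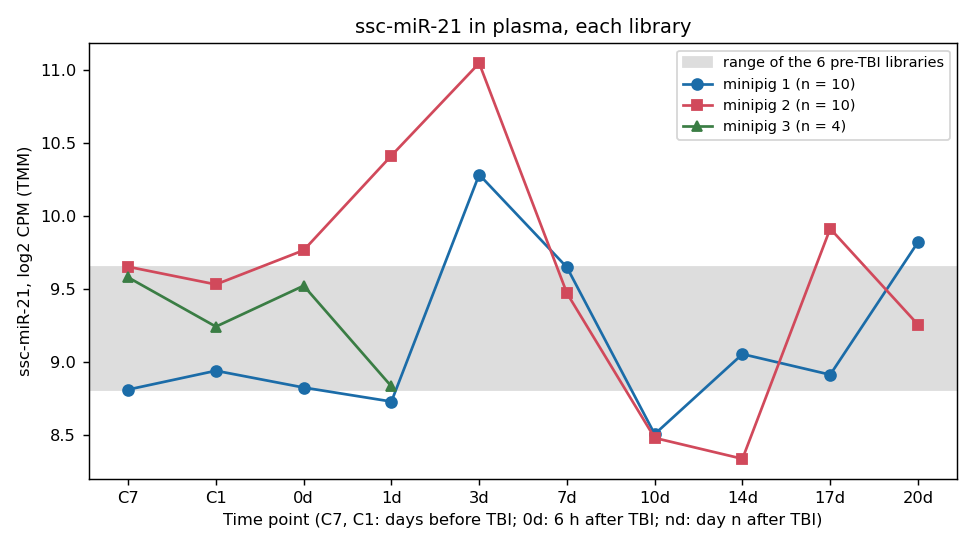
Level of ssc-miR-21 (log2 CPM, y axis) at each time point (x axis, evenly spaced) in minipigs 1 and 2 (10 libraries each) and minipig 3 (4 libraries), with the range of the 6 pre-TBI libraries in grey. Both 3d libraries, at 10.29 and 11.05, lie above the grey band and both 10d libraries, at 8.51 and 8.48, below it.

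Ordered by mean log2 CPM, the time points ran 3d (10.67), 7d (9.56), 20d (9.54), 17d (9.42), 0d (9.37), C7 (9.35), 1d (9.33), C1 (9.24), 14d (8.70) and 10d (8.50). Only 3d and its neighbour 7d did not overlap in their libraries. All other neighbours in this order did. Over the phases, Early had a mean of 9.66 ± 0.76 (SD, n = 10) and Mid one of 8.60 ± 0.32 (SD, n = 4). Late had 9.42 ± 0.71 (SD, n = 2), while LR had 9.54 ± 0.40 (SD, n = 2). The Early spread was the widest. That phase held the 3d libraries together with 8 others, and its 1d libraries alone had an SD of 0.94 (n = 3). Minipig 2 had more miR-21 than minipig 1 at 6 of 10 time points, with a median difference of 0.68 and a range of -0.72 to 1.68. In edgeR's fit, the biological coefficient of variation of miR-21 within phases was 0.429, against a median of 0.387 over the 411 ssc-miRNAs, and 39.2% of them had a larger one.

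In no phase did miR-21 pass the threshold of an adjusted p of 0.05 against pre-TBI. The log2 fold changes were 0.50 at Early (SE 0.31, adjusted p = 0.362), -0.73 at Mid (SE 0.41, adjusted p = 0.824), 0.19 at Late (SE 0.50, adjusted p = 0.862) and 0.22 at LR (SE 0.48, adjusted p = 0.853) in edgeR's quasi-likelihood test. The 95% intervals ran from -0.15 to 1.15, from -1.57 to 0.11, from -0.85 to 1.23 and from -0.77 to 1.21, so each of them held a log2 difference of 1 in at least 1 direction. Without minipig 2 the Late value turned to -0.60, and without minipig 1 the LR value turned to -0.24. The LR value was also -0.05 with libraries thinned to equal totals, and the Late value -0.07 with scaling by library size only, so no direction is given for these phases.

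Over all 411 ssc-miRNAs tested, few passed an adjusted p of 0.05 in these comparisons. At Early 0% did and 18.7% had an unadjusted p under 0.05 (77 of 411), at Mid 0% and 5.35% (22), at Late 4.38% and 22.6%, and at LR 0% and 5.6% (23). Where the count was 0, DESeq2 called 33 ssc-miRNAs at Early, 0 at Mid and 0 at LR, and limma-voom called 0 in each. edgeR's likelihood ratio test called 29 at Early, 0 at Mid and 0 at LR.

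Time labels were also permuted within each animal in two-sided exact permutation tests, and none gave a p under 0.05, which only Early and all post-TBI libraries had enough arrangements to reach. The mean difference of log2 CPM over 3 minipigs was 0.28 at Early (exact p = 0.331), with 0.50 in minipig 1, 0.58 in minipig 2 and -0.23 in minipig 3. At Mid it was -0.64 (exact p = 0.167, where the smallest p possible is 0.0556), with -0.10 in minipig 1 and -1.18 in minipig 2. It was 0.18 at Late (exact p = 0.333) and 0.30 at LR (exact p = 0.556), where the smallest p that the design allows is 0.111. All post-TBI libraries against pre-TBI gave 0.04 (exact p = 0.901). Adjusted over these 5 comparisons, every p was 0.555 or higher.

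Between consecutive phases, Mid against Early gave a log2 fold change of -1.23 (SE 0.39, 95% interval -2.03 to -0.43). The unadjusted p was 0.00432 and the adjusted p 0.0845 by edgeR's quasi-likelihood test, so the step did not pass the threshold after adjustment. In this comparison 0% of ssc-miRNAs passed an adjusted p of 0.05 and 23.1% (95 of 411) had an unadjusted p under 0.05. A fit that blocked on the animal called 2 ssc-miRNAs after adjustment, and miR-21 was not among them (-1.20, edgeR adjusted p = 0.0784). Without minipig 2 the step was -0.54 (adjusted p = 0.499). Late against Mid gave 0.92 (SE 0.53, adjusted p = 0.356) and LR against Late 0.03 (SE 0.61, adjusted p = 0.981). Without minipig 2 these were -0.24 and 1.04, and without minipig 1 the latter was -0.60, so their direction and the order of the steps by size rest on single animals.

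The largest difference of a single time point was at 3d. miR-21 was 2.6-fold higher than pre-TBI, a log2 fold change of 1.38 (SE 0.40, 95% interval 0.54 to 2.22). The unadjusted p was 0.00281, the adjusted p 0.0826 by edgeR's quasi-likelihood test, and the p ranked 14 of 411. The call thus rested on the tool, since DESeq2's Wald test gave 1.41 (adjusted p = 0.0358) and edgeR's likelihood ratio test 1.37 (adjusted p = 0.047). At 3d, 1.22% of ssc-miRNAs passed an adjusted p of 0.05 and 8.52% an unadjusted p of 0.05. Without minipig 2 the value was 1.14 (adjusted p = 0.788) and without minipig 1 it was 1.50 (adjusted p = 0.503), with 1 library left at 3d in each case.

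miR-21 passed the threshold at none of the other time points. The nearest were 10d, with a log2 fold change of -0.86 (SE 0.48, adjusted p = 0.633), and 14d with -0.62 (adjusted p = 0.687). The estimates at 0d, 1d, 7d, 17d and 20d were 0.08, 0.20, 0.22, 0.19 and 0.22, with adjusted p of 0.921, 0.837, 0.904, 0.841 and 0.822, and each changed sign without 1 of the minipigs. A single test over the 8 post-TBI time points gave an unadjusted p of 0.023 and an adjusted p of 0.132 by edgeR, where 6.81% of ssc-miRNAs passed the adjusted threshold and 25.8% the unadjusted one. A comparison of 3d with 10d, chosen after the values were seen, gave 2.24 (SE 0.57, 95% interval 1.05 to 3.44, adjusted p = 0.0283 by edgeR). As its groups were the highest and the lowest, its p is a description.

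**Figure D3:**
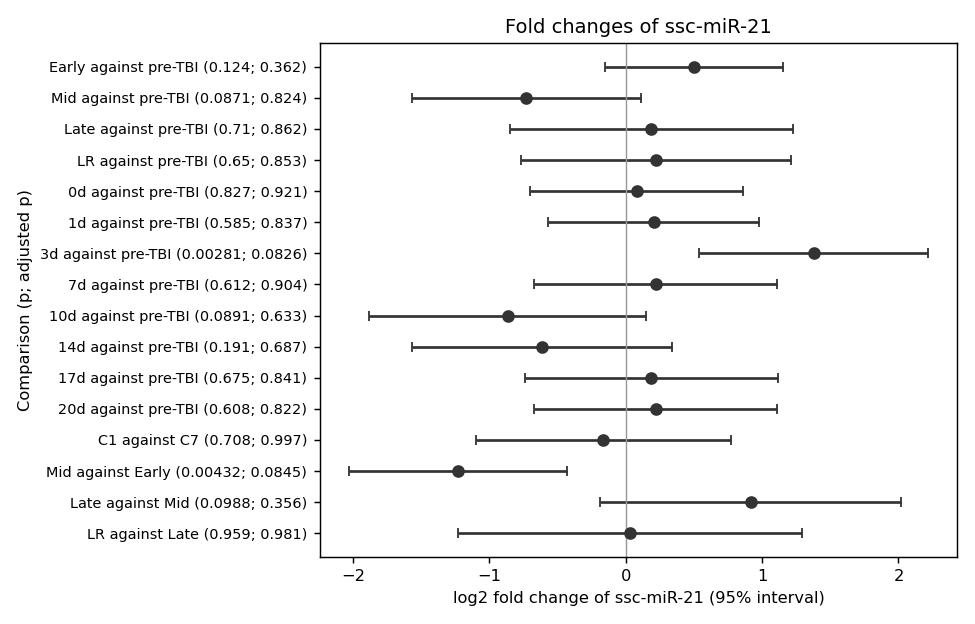
Log2 fold changes of ssc-miR-21 (x axis, points) with 95% intervals (bars) for each comparison (y axis, with the unadjusted and the adjusted p). The intervals of 3d against pre-TBI (0.54 to 2.22) and of Mid against Early (-2.03 to -0.43) leave out 0, and the others drawn hold it.

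The ssc-miRNAs whose log2 CPM followed miR-21 most closely over the 24 libraries were miR-22-3p (Pearson r = 0.82), miR-16 (0.82), let-7i (0.76), miR-26a (0.74) and let-7g (0.72), among 402 ssc-miRNAs with a median of at least 10 counts and a median r of -0.02. These were also the 5 highest after each minipig's mean was subtracted, with 0.81, 0.82, 0.75, 0.73 and 0.71. The libraries share minipigs, depth and scaling, so the values are descriptions. miR-16 is abundant in red cells, and let-7g and let-7i belong to the let-7 family of growth-restraining miRNAs. let-7i had a median of only 15 counts per library.

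At 3d, all 5 lay above their own pre-TBI means in both animals. miR-22-3p was 1.91 and 1.96 above in minipigs 1 and 2, with a log2 fold change of 1.90 (SE 0.52, edgeR adjusted p = 0.0666), and miR-16 was 2.77 and 1.00 above, with 1.11 (SE 0.87, edgeR adjusted p = 0.881). miR-26a was 1.87 and 1.42 above, with 1.55 (SE 0.51, edgeR adjusted p = 0.195). At 10d all 5 lay below their own pre-TBI means in both animals, with differences of -1.00 and -1.99 for miR-22-3p and of -0.53 and -2.81 for miR-16. The courses parted at several later time points. At 7d in minipig 1, miR-21 was at 0.77 and let-7i at -0.71, and at 20d miR-21 was at 0.94 while let-7i and miR-26a were at -0.43 and -0.38. At 17d miR-21 was at 0.04 and miR-22-3p at -2.23 in minipig 1. In minipig 2 at 17d, miR-26a was 2.67 and let-7g 2.08 above their own means while miR-16 was 1.73 below and miR-21 0.32 above.

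At the other end were miR-487b (r = -0.58), miR-9819-5p (-0.57), miR-7138-3p (-0.56), miR-194b-3p (-0.55) and miR-9801-5p (-0.51). None of these passed an adjusted p of 0.05 at 3d, and their log2 fold changes there were -0.30, -0.48, -0.35, -0.35 and -0.72.

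**Figure D4:**
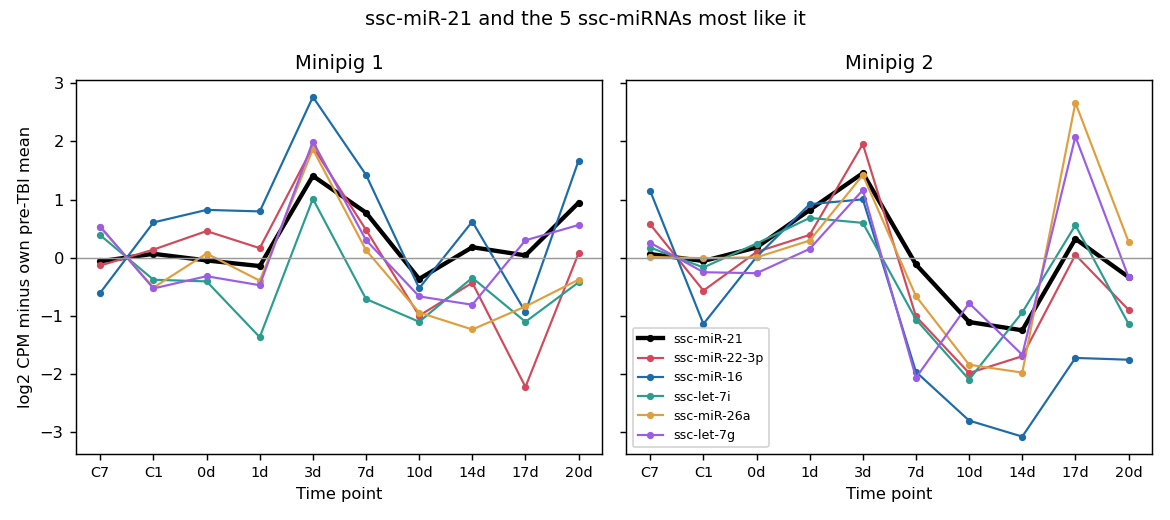
Log2 CPM minus the animal's own pre-TBI mean (y axis) at each time point (x axis) for ssc-miR-21 (black) and the 5 ssc-miRNAs most like it, in minipig 1 (left) and minipig 2 (right). All 6 lie above 0 at 3d and below 0 at 10d in both animals.

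Measures of the libraries moved with miR-21 as well. Over the 24 libraries, its log2 CPM had r = 0.45 with the log2 total count and r = 0.63 with the haemolysis index, the log2 CPM of the red cell miRNA miR-451 minus that of miR-23a. At 3d this index was 1.46 in minipig 1 and 2.36 in minipig 2. The pre-TBI libraries had -1.19 and 0.01 in minipig 1 and 3.42 and 1.14 in minipig 2, so the 3d index was above both of its own pre-TBI values in minipig 1 only. In the 4 Mid libraries the index was -1.31 to 0.08. With the libraries thinned to 24341 counts each, miR-21 at 3d was 1.38 (edgeR adjusted p = 0.248) above pre-TBI, as large as without thinning. The 3d totals, 254333 and 260504 counts, were near the pre-TBI median of 243304, so thinning cannot tell whether depth had a part there. Totals were lower at Mid (35762 to 103083) and Late (29159 and 63441). Thinned, these phases gave -0.81 (edgeR adjusted p = 0.992) and 0.30 (edgeR adjusted p = 0.815). The part of depth was not tested.

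The red cell markers (miR-451, miR-144, miR-486, miR-16 and miR-92a, 5 rows) were all above 0 counts on average, and none of the 5 had an unadjusted p under 0.05 at 3d, with log2 fold changes of 0.30 to 1.11. Their summed log2 CPM was 13.9 to 16.8 before TBI, 15.5 and 16.3 at 3d, and 14.1 to 14.9 at Mid, ranges that overlapped. At Mid, miR-16 (-2.23) and miR-451 (-2.42) had an unadjusted p under 0.05, beside 5.35% of all ssc-miRNAs, and no adjusted p was under 0.807. Set against miR-16 in the same library, the difference of miR-21 from pre-TBI within minipigs turned to -0.27 at Early and to 0.81 at Mid (exact permutation tests, p = 0.596 and 0.333). At 3d the log2 ratio of miR-21 to miR-16 did not rise above the pre-TBI values of either animal. It was -2.19 in minipig 1, below -0.285 at C7 and -1.37 at C1. In minipig 2 it was -2.32, between -3.86 at C7 and -1.69 at C1. The ratio was not tested at 3d.

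The white cell and platelet markers (9 rows for 6 of 7 names, with miR-223 not analysed here) had a median log2 fold change of 0.09 over the 9 rows at 3d, beside -0.07 over all 411. Their summed log2 CPM, in which miR-191 had by far the most counts, was 13.7 to 14.5 before TBI and 15.4 and 16.3 at 3d, which did not overlap. It was 12.6 to 13.8 at Mid, 12.3 and 13.0 at Late, and 12.9 and 13.7 at LR. At 3d, 3 of the 9 rose past an adjusted p of 0.05 in edgeR, where 1.22% of all ssc-miRNAs passed it, namely miR-191 by 2.08 (adjusted p = 0.0249), the endothelial and platelet miRNA miR-126-5p by 1.66 (adjusted p = 0.0282) and the lymphocyte miRNA miR-342 by 1.50 (adjusted p = 0.00947). The other arm of the precursor of miR-126-5p, miR-126-3p, was at -0.13, and miR-142-3p, miR-150 and miR-155-3p, all of white cells, were at -0.04, -0.01 and -0.90. The 5p arms miR-142-5p and miR-155-5p were at 0.71 and 0.09. The part of these markers and of the red cell markers in the level of miR-21 was not tested. Of the 2 liver rows, miR-192 was at 1.14 (edgeR adjusted p = 0.0666) and the hepatocyte miRNA miR-122 at -0.34 (edgeR adjusted p = 0.953) at 3d. Of the 6 muscle rows, miR-208b alone had an unadjusted p under 0.05 there, beside 8.52% of all ssc-miRNAs, with -2.75 (edgeR adjusted p = 0.33).

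Among miRNAs linked to radiation by earlier work (25 rows for 15 of 16 names), 4 had an unadjusted p under 0.05 at 3d, all higher. Over all ssc-miRNAs that share was 8.52%. Beside 1.22% of all ssc-miRNAs, 2 of the list passed the adjusted threshold. The latter were miR-126-5p, a marker above, and the p53-responsive miR-215 with 1.35 (SE 0.32, edgeR adjusted p = 0.0406). The others were miR-27b-3p with 1.52 (edgeR adjusted p = 0.0826) and miR-24-3p with 1.08 (edgeR adjusted p = 0.0666). The median log2 fold change of the list at 3d was 0.04, beside -0.07 over all 411. The list had 3 higher and 3 lower at Early, 1 and 3 at Mid, 7 and 1 at Late, and 2 and 0 at LR at an unadjusted p under 0.05, where the shares over all ssc-miRNAs in either direction were 18.7%, 5.35%, 22.6% and 5.6%. Of the 25 rows, only miR-34a, a direct target of p53, passed the adjusted threshold at Late, with 1.69 (edgeR adjusted p = 0.0482). Over all ssc-miRNAs 4.38% passed it there. Of the 4 members with the most counts, miR-27b-3p and miR-215 are given above, and miR-146a-5p and miR-16 were at -1.08 and 1.11 at 3d with adjusted p of 0.953 and 0.881 in edgeR.

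The miRNAs that stress and inflammation induce in many cell types, as they do miR-21, took 14 rows for 11 names. At 3d, 0 were higher and 1 lower at an unadjusted p under 0.05, beside 8.52% of all ssc-miRNAs. The lower one was miR-221-5p with -2.82 (edgeR adjusted p = 0.35). The median of the list at 3d was -0.21, beside -0.07 over all 411. miR-146a-5p and miR-146b, feedback inhibitors of NF-kB signalling, were at -1.08 and -1.11 (edgeR adjusted p = 0.953 for each), and miR-181a and miR-125b were at 0.81 and 0.26. At Late, 5 of the 14 were higher and 0 lower at an unadjusted p under 0.05, beside 22.6% of all ssc-miRNAs (4.38% after adjustment), with miR-181a at 4.56 and miR-181b at 2.93 (edgeR adjusted p = 0.00125 for each), where miR-21 was at 0.19. The list had 0 higher and 2 lower at Early, 1 and 0 at Mid, and 1 and 0 at LR. The shares over all ssc-miRNAs in either direction were 18.7%, 5.35% and 5.6%.

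**Figure D5:**
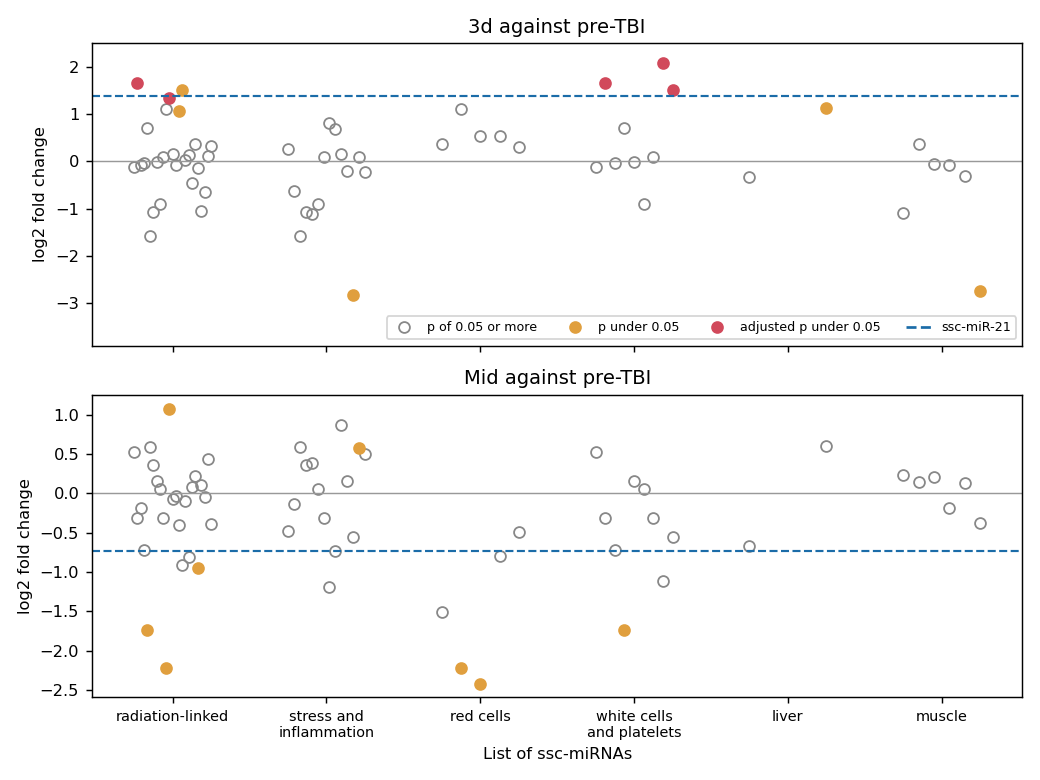
Log2 fold changes (y axis) of the members of 6 lists of ssc-miRNAs (x axis) at 3d (top) and at Mid (bottom) against pre-TBI, 1 circle per row (a row can be in several lists), filled orange for an unadjusted p under 0.05 and red for an adjusted p under 0.05. The dashed line marks ssc-miR-21, at 1.38 and -0.73, and at 3d the red circles stand among the radiation-linked and the white cell and platelet miRNAs.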

How the data were processed

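Per the paper's methods, the authors made TruSeq small RNA libraries from plasma, trimmed reads with cutadapt, aligned them to the pig genome (ssc5) and miRBase, and counted ssc-miRNAs with miRDeep2. Bowtie2 2.2.3.0 and bcl2fastq are also named in the submitters' processing notes. The authors deposited raw counts for 411 ssc-miRNAs in 30 libraries, without normalization. Multi-mapped or isomiR reads cannot be separated in such counts.

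Counts were tested with edgeR 4.0.16 in R 4.3.3 (TMM, CPM above 0.5 in at least 3 libraries, passed by all 411, quasi-likelihood test, Benjamini-Hochberg adjustment over 411), with 5 phases in 1 fit, time points in a fit with 9 groups, and C1 against C7 in a fit with 10. DESeq2 1.42.0 and limma 3.58.1 were alternatives. Fold changes use a prior count of 0.125 and levels a prior count of 2. Scripts were tested on simulated data. Python 3.11.15, numpy 2.4.6, pandas 2.3.3, scipy 1.17.1 and matplotlib 3.10.9 were used for the rest.

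Libraries were grouped by the animal and time point in their labels. Same-animal libraries are paired by design, and their deviations from phase means correlated by 0.169 over 78 pairs, against -0.102 over 130 pairs of different animals. No libraries were duplicates (smallest chi-square per degree of freedom 21.8 over 68 pairs of a phase).

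The miRNA and the lists were chosen with earlier results of these data known. Named miRNAs are miR-21, the 5 most and 5 least like it by Pearson r of log2 CPM, its neighbours in level, and from each list up to 4 members with the most counts and any that passed an adjusted p of 0.05 in a phase. List members past a p at 3d or Mid were also named, after their values were seen. A name took the row of exactly that name with any arm, so miR-375, miR-223 and miR-194 took none. A further list that had been planned is not reported here.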

Additional observations from a re-analysis of the deposited data

Results flagged for a closer look

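The change of miR-21 from the animal's own pre-TBI mean went opposite ways at 3d and at 10d, up in both minipigs at 3d (1.41 and 1.46 in log2 CPM) and down in both at 10d (-0.37 and -1.11), so that the means differed by 2.17. The 10d libraries held 15 counts of miR-21 each. The test of this difference, chosen after the values were seen, gave a log2 fold change of 2.24 (edgeR adjusted p = 0.0283), and 2.19 with the minipig as a block (edgeR adjusted p = 0.0238).

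The difference between 17d and 10d, 0.92, was flagged too, with 17d at 0.04 and 0.32 above the animals' own pre-TBI means. The 0.04 was smaller than the 0.129 between the 2 pre-TBI bleeds of minipig 1, and no direction is given for 17d. For 17d against 10d the edgeR test gave 1.05 (SE 0.57, adjusted p = 0.699), and the 17d library of minipig 1 held 10 counts.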

How the results depend on the processing

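Of 275 alternative values, 245 kept the direction and the side of the threshold of an adjusted p of 0.05, 28 changed sign and 2 newly passed the threshold. The value at 3d stayed between 1.14 and 1.50 over 18 alternatives, each with an unadjusted p under 0.05, and passed the adjusted threshold with DESeq2's Wald test (1.41) and edgeR's likelihood ratio test (1.37). With the minipig as a replicate block it was 1.34 (edgeR adjusted p = 0.107), Mid against Early was -1.20, and the block alone changed no call for miR-21. Early against pre-TBI was 0.42 in this paired fit.

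The sign changes were of values that passed no threshold, and the cause was not tested. Late turned to -0.071 with library size only and -0.016 with C7 as the only baseline, and 17d likewise to -0.071 and -0.016. LR turned to -0.052 with thinned libraries and -0.11 with thinning and the block, and 20d to -0.052 with thinning. The value at 0d was -0.25 with thinning, -0.26 with thinning and the block, -0.23 with library size only, -0.13 with TMM without the most abundant ssc-miRNA and -0.19 with C7 only. At 1d it was -0.024 with limma-voom. As a ratio to miR-16, the difference within minipigs was -0.27 at Early and 0.81 at Mid, and all post-TBI libraries gave -0.084 with library size only. The ratio to miR-16 was not among the 18 alternatives at 3d.

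With each minipig left out in turn, Late ranged from -0.60 to 0.36, LR from -0.24 to 0.44, Late against Mid from -0.24 to 1.54 and LR against Late from -0.60 to 1.04. The time points ranged from -0.12 to 0.02 (0d), -0.49 to 0.59 (1d), -0.15 to 0.44 (7d), -0.60 to 0.36 (17d) and -0.24 to 0.45 (20d). Within minipigs, LR ranged from -0.34 to 0.94 and all post-TBI libraries from -0.12 to 0.17. A lone library at a time point was then assumed to vary like the others. Early ranged from 0.18 to 0.69, Mid from -1.18 to -0.36 and Mid against Early from -1.64 to -0.54.

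Counts of 9 to 15 in 4 libraries limit the values at C7, 10d and 17d, and 2 animals limit all values from 3d onwards. The number of ssc-miRNAs past an adjusted p of 0.05 at 3d was 5, against 21 with DESeq2 and 14 with the likelihood ratio test, and at Early 0 against 33 and 29. At 3d it fell to 1 with libraries thinned or with library size only. It was 0 there with only the 2 groups compared or without minipig 3. At Late it was 18, against 27 with DESeq2, and 0 with C7 as the only baseline or with only the 2 groups compared. Every call at 3d and at Late was thus lost in some settings.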
